A study of Homo sapiens with 12 samples.

Results

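The 29 genes described here encode protein and lipid kinases, protein phosphatases and their regulatory subunits that carry cellular signals. They were chosen by gene symbol among the 1676 genes of the deposited table. The symbols cover mitogen-activated protein (MAP) kinases, phosphoinositide kinases, casein kinases, ribosomal S6 kinases and kinase genes whose symbols begin with PRK. They also cover PTP and dual specificity phosphatases, PPP phosphatases and PPM1 phosphatases. The symbols matched 30 genes. PPP2R1A was left aside by the rule, and none of the matched genes is a pseudogene in GENCODE. The members comprise 17 genes with kinase symbols and 12 with phosphatase symbols. Some encode regulatory subunits rather than enzymes, and these are named as such below. No member of the CAMK and STK families, which the symbols also covered, was among the genes of the table.

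RNA came from SHSY5Y cells, an established human neuroblastoma line, 24 h after transfection with a tau construct, and each of the 12 libraries was made from 400 ng of RNA with a kit that sequences the 3′ part of mRNA. There were 3 libraries for each of 4 constructs. Tau-WT is the reference, Tau-S199E and Tau-K174Q carry 1 substitution each, and Tau-K174Q-S199E carries both. Glutamine in place of lysine mimics acetylation, and glutamate in place of serine mimics phosphorylation. All groups received tau, so no group shows the cells without transfection. No source used here gives the promoter of the constructs or says whether libraries of a group came from separate cultures, so the spread between libraries may be technical. Libraries carry the numbers in their column names: 1, 2 and 3 for Tau-WT, 4, 5 and 6 for Tau-K174Q, 10, 11 and 12 for Tau-S199E, and 16, 17 and 18 for Tau-K174Q-S199E.

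Values are standardised expression: the authors set each gene to mean 0 and SD 1 over the 12 libraries. A value or difference is therefore given in SD units of that gene, levels cannot be compared between genes, and read depth cannot be recovered. The table holds only genes with an adjusted p under 0.05 in a contrast its header does not name. Fold changes of the authors' deposited table were positive where Tau-WT was above Tau-S199E and negative where it was below in 1676 of 1676 genes, and they also followed the interaction of both substitutions in 1676 of 1676. Directions with Tau-S199E and Tau-K174Q are thus tied to how the table was made. The same may hold for small differences of Tau-K174Q-S199E from Tau-WT and for its directions against Tau-S199E. The p-values below were computed on genes already selected by a test on these data, so they are not independent of that selection. The counts below are read against the whole table. None of the 14 listed markers of adrenergic neuroblastoma cells was among the genes of the table, so the cell type could not be checked. In bulk RNA, fewer cells of a type and less RNA per cell cannot be told apart.

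Kinases attach phosphate to proteins or lipids and phosphatases remove it. In a MAP kinase cascade a MAP4K can act on a MAP3K, the MAP3K acts on a MAP2K, the MAP2K acts on a MAP kinase such as ERK, JNK or p38, and dual specificity phosphatases (DUSPs) switch the MAP kinase off. Tau in neurons is itself a substrate of many of these enzymes, and protein phosphatases of the PPP family remove phosphate from it.

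Among the members, genes with kinase and with phosphatase symbols split in opposite proportions with Tau-S199E. Of the 17 kinase genes 11 fell and 3 rose against Tau-WT, whereas of the 12 phosphatase genes 8 rose and 3 fell (limma, adjusted p under 0.05 over 1676 genes). In SD units PTPRF, a receptor tyrosine phosphatase, rose most (2.5, SE 0.34). PPM1B, a metal-dependent serine and threonine phosphatase, came next (2.41, SE 0.40). PRKACA, the alpha catalytic subunit of protein kinase A, had the largest fall in these units (-2.27, SE 0.51). PIK3R3, a regulatory subunit of class I phosphoinositide 3-kinase, followed (-2.27, SE 0.52). This order does not rank fold size. The deposited log2 value, for a contrast not named, was 1.17 for PRKACA and 0.77 for PIK3R3. Among the members PPP1CA had the largest positive one, 1.64. PTPRF had -2.22 and PPM1B -1.41, while DUSP7 had the largest negative one, -3.97. In Tau-S199E against Tau-WT 90% of all 1676 genes passed, 48.3% as rises and 41.8% as falls. The 25 of 29 members that passed are thus a share like that of the table. The split did not extend to the other phosphatases and regulators listed below, of which 11 were in the table, with 4 rises and 7 falls. The other protein kinases listed there, 16 in the table, had 4 rises and 8 falls. Whether the split between kinases and phosphatases differs from that of other genes was not tested.

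In 28 of 29 members the 3 Tau-S199E libraries lay wholly on 1 side of the 3 Tau-WT libraries, the exception being DUSP16. The same held for 94.2% of the table. An exact permutation test of 3 libraries against 3 cannot go below a two-sided p of 0.1, its value for each of these 28 members. The median absolute difference was 2.04 SD units over the members and 1.99 over the table.

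**Figure D1:**
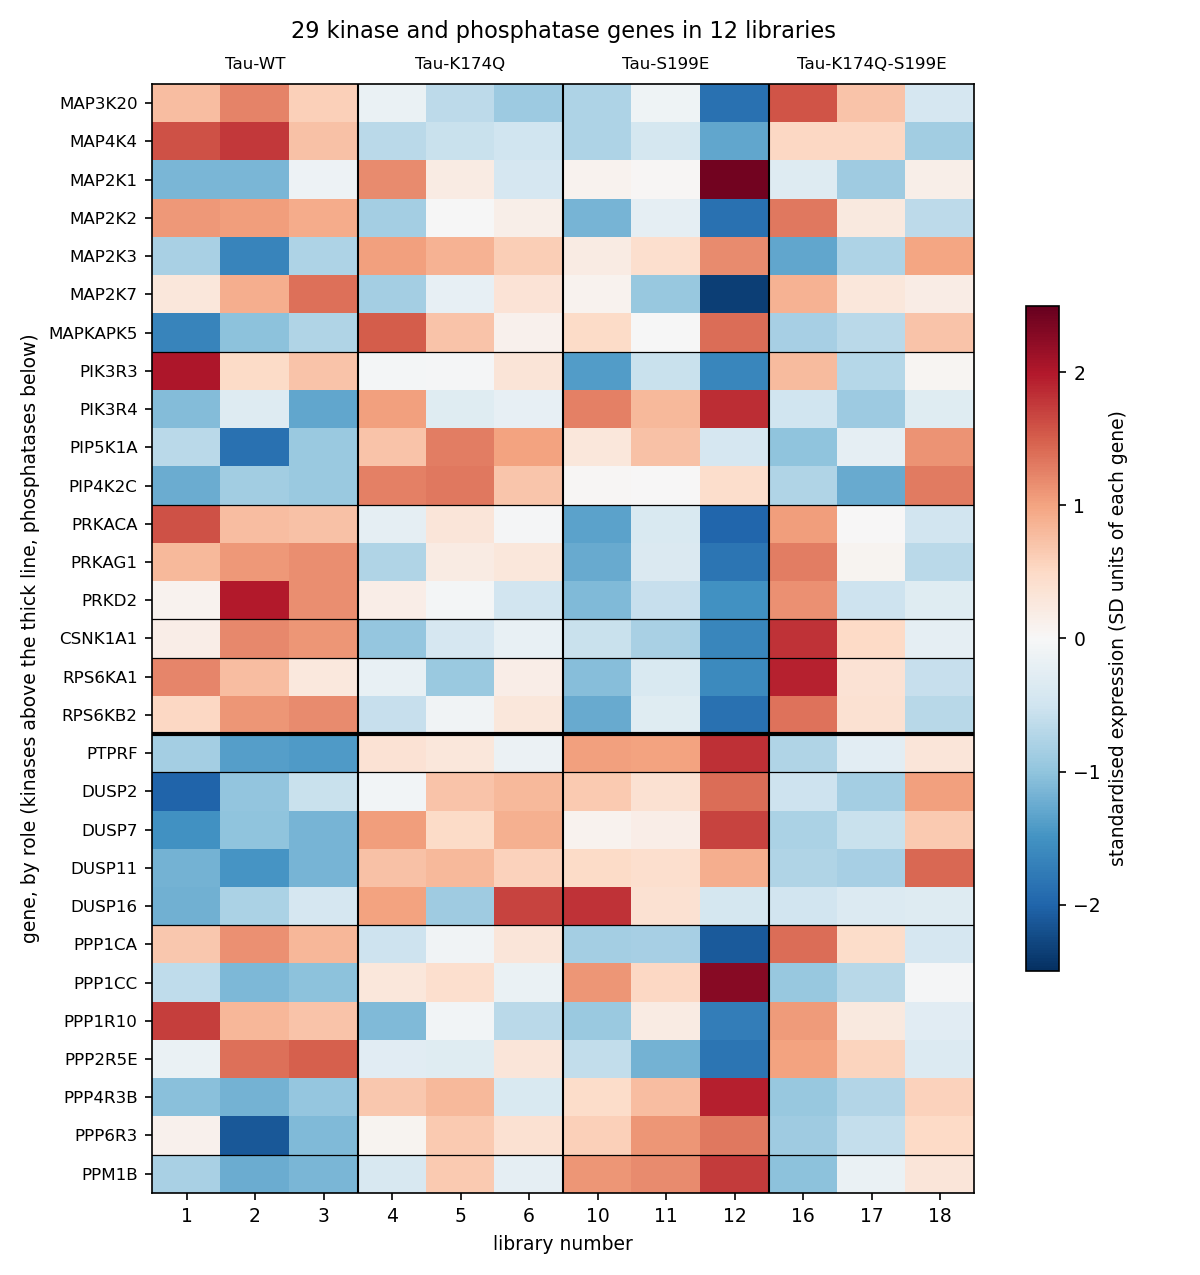
Standardised expression (SD units of each gene, colour) of the 29 members (rows, by role, kinases above the thick line) in the 12 libraries (columns, by construct). Of the 12 phosphatase rows 9 are higher and 3 lower on average with Tau-S199E than with Tau-WT, against 6 and 11 of the 17 kinase rows, and library 12 has the deepest colours.

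Libraries 12 and 18 stand apart in these genes, the first made with Tau-S199E and the second with Tau-K174Q-S199E. Library 12 was the Tau-S199E library farthest from the Tau-WT mean in 27 of 29 members and in 85.5% of the table. Library 18 lay nearer the mean of Tau-S199E than that of Tau-WT in 24 of 29 members, while library 16 did so in 0 and library 17 in 3. Over the table the shares were 80.0% for library 18, 6.56% for library 16 and 15.0% for library 17. Without library 12, Tau-S199E against Tau-WT called 7 kinases and 7 phosphatases, beside 49.7% of the table. Without Tau-WT library 2 it called 9 kinases, beside 63% of the table. Of the 25 members called, 14 passed under all 10 alternatives run, and 11 did not pass without library 12. The share of the table that passed under all alternatives was not counted. Every call lost under any alternative was among these 11. Some of them were also lost without Tau-WT library 1 (DUSP2, PPP1R10, MAPKAPK5 and RPS6KA1) or without Tau-WT library 3 (CSNK1A1 and MAP2K7). RPS6KA1 was also lost without Tau-S199E library 10, and PPP6R3, PPP1R10 and MAP2K7 in the fit on the 6 libraries compared.

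Of the 7 MAP kinase cascade members 4 fell, 2 rose and 1 did not pass. At the top, MAP4K4, which acts upstream of JNK, stood at 1.59, 1.76 and 0.74 with Tau-WT, at -0.68, -0.56 and -0.51 with Tau-K174Q, at -0.78, -0.44 and -1.30 with Tau-S199E, and at 0.52, 0.51 and -0.87 with Tau-K174Q-S199E. All 9 libraries with a substituted tau were below the lowest Tau-WT library. It fell by 2.20 SD units with Tau-S199E (SE 0.44, adjusted p = 0.00981). MAP3K20, the kinase ZAK that responds to stalled ribosomes, also fell, by 1.79 SD units (SE 0.58, adjusted p = 0.0227), and did not pass without library 12 (adjusted p = 0.0758) or without library 2 (adjusted p = 0.0662).

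The paralogues MAP2K1 and MAP2K2 encode MEK1 and MEK2, which share the task of activating ERK, and their values ran in opposite directions. They were picked as a pair after their values were seen. MAP2K2 (chromosome 19, 4090321 to 4124129, minus strand, GRCh38) stood at 1.09, 1.05 and 0.94 with Tau-WT, the tightest Tau-WT group among the members, at -0.85, -0.02 and 0.14 with Tau-K174Q, at -1.16, -0.23 and -1.86 with Tau-S199E, and at 1.32, 0.25 and -0.66 with Tau-K174Q-S199E. It fell by 2.11 SD units with Tau-S199E (SE 0.57, adjusted p = 0.0141), and passed narrowly without library 12 (-1.72, adjusted p = 0.0494). MAP2K1 (chromosome 15, 66386817 to 66492312, plus strand, GRCh38) stood at -1.15, -1.13 and -0.13 with Tau-WT, at 1.18, 0.21 and -0.43 with Tau-K174Q, at 0.08, 0.02 and 2.42 with Tau-S199E, and at -0.32, -0.89 and 0.14 with Tau-K174Q-S199E. Its 3 Tau-S199E libraries were above the Tau-WT libraries, but 1 of them, library 12, was far above the other two. The difference of 1.65 SD units (SE 0.72) did not pass (adjusted p = 0.0567) and was 0.86 without library 12 (adjusted p = 0.171). In the authors' deposited table the log2 fold change was -3.05 for MAP2K1 and 1.38 for MAP2K2. The 500 bases at the 3′ end of MAP2K1 overlap exons of AC116913.1 on the opposite strand, and 1 pseudogene is named after MAP2K1. No source used here gives the strand setting or the treatment of shared reads, so its value is uncertain.

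**Figure D2:**
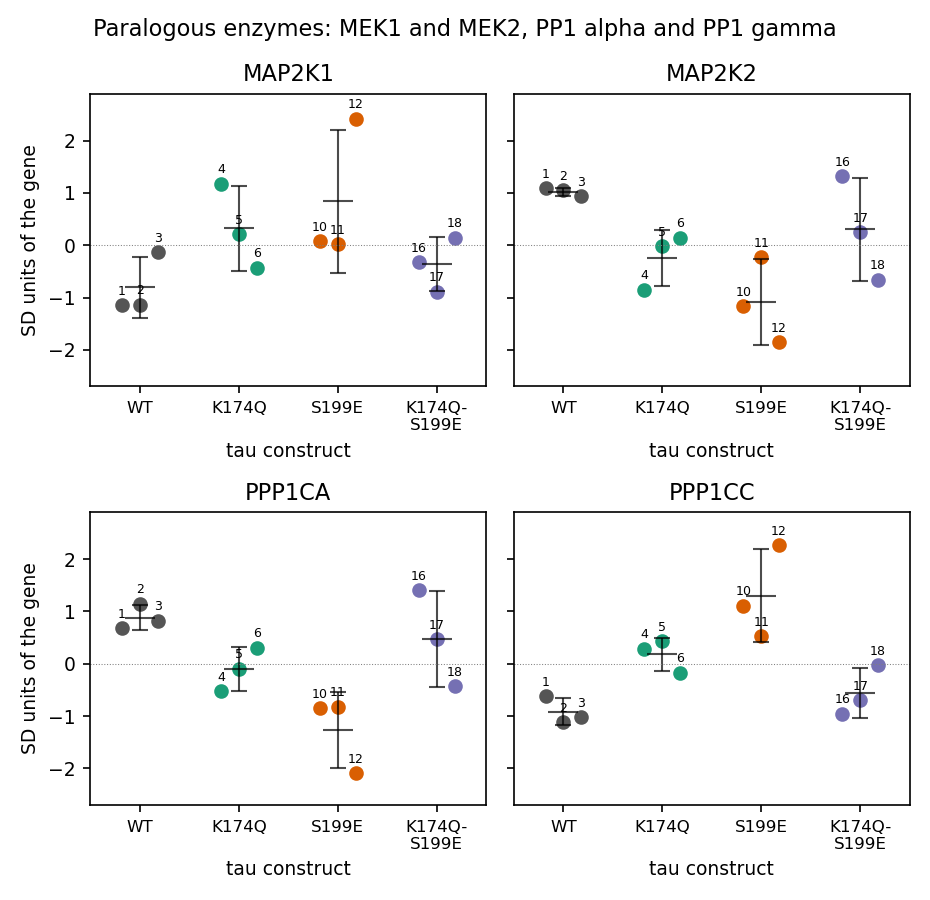
Standardised expression (SD units of the gene, y axis) of MAP2K1, MAP2K2, PPP1CA and PPP1CC by tau construct (x axis); points are libraries with their numbers, and bars give the mean and SD of 3 libraries. MAP2K2 and PPP1CA are high with Tau-WT and low with Tau-S199E, while PPP1CC, and MAP2K1 mainly through library 12, run the other way.

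The other MAP2K genes, MAP2K3 and MAP2K7, also differed in direction. MAP2K3, which activates p38, stood at -0.80, -1.65 and -0.77 with Tau-WT, at 1.02, 0.87 and 0.61 with Tau-K174Q, at 0.21, 0.42 and 1.18 with Tau-S199E, and at -1.29, -0.78 and 0.99 with Tau-K174Q-S199E. It rose by 1.68 SD units with Tau-S199E (SE 0.58, adjusted p = 0.0265), a call lost without library 12 (adjusted p = 0.0876) and without library 2 (adjusted p = 0.0820). MAP2K7, which activates JNK, fell by 1.93 SD units (SE 0.62, adjusted p = 0.0217), with library 12 at -2.34 but library 10 at 0.08, and the difference was -1.29 without library 12 (adjusted p = 0.0609). Without library 2 its adjusted p was 0.0545. Below the cascade, MAPKAPK5, a kinase activated by p38 and atypical MAP kinases, stood at -1.64, -1.03 and -0.76 with Tau-WT, at 1.52, 0.71 and 0.10 with Tau-K174Q, at 0.48, -0.01 and 1.40 with Tau-S199E, and at -0.83, -0.67 and 0.72 with Tau-K174Q-S199E. It rose with Tau-S199E by 1.77 SD units (SE 0.57, adjusted p = 0.0223; adjusted p = 0.0762 without library 12). In both rising genes library 18 stood with the libraries of the constructs that carry 1 substitution.

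Upstream sequences are shown for 4 members. MAP2K1 and MAP2K2 are a paralogue pair whose mean values ran in opposite directions, although MAP2K1 did not pass. DUSP7 had the largest deposited fold change among the members, and PPP1CC is the PP1 gene that rose. Each is the 250 bases before the transcription start in RefSeq (GRCh38.p14), 5′ to 3′ on the strand of the gene. Capitals mark the GC box GGGCGG or its reverse complement, the letters bound by SP1-like factors.
MAP2K1, chr15:66386662-66386911, plus strand: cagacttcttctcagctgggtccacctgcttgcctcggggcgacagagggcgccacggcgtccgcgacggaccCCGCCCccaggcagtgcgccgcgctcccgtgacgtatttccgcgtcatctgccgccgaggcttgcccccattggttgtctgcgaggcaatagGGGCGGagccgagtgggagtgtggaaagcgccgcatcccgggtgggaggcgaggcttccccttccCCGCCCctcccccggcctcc
MAP2K2, chr19:4124123-4124372, minus strand: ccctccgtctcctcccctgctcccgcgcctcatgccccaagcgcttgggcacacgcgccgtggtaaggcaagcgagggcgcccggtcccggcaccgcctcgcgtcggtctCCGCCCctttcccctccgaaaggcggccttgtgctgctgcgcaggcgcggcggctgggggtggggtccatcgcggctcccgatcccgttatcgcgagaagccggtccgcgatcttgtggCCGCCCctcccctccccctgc
DUSP7, chr3:52056572-52056821, minus strand: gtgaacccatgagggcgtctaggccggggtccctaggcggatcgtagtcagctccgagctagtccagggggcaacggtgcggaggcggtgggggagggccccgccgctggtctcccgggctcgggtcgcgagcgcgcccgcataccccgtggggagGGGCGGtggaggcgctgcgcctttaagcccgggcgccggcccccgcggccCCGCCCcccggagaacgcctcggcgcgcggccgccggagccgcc
PPP1CC, chr12:110742892-110743141, minus strand: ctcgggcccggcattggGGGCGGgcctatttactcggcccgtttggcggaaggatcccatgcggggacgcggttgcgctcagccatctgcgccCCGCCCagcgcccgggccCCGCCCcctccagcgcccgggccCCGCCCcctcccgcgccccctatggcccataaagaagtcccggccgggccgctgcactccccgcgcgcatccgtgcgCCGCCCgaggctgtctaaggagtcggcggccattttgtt
MAP2K1, with 3 matches, and MAP2K2, with 2, both hold GC boxes, while their mean values ran in opposite directions, for MAP2K1 without passing. DUSP7 holds 2 and PPP1CC 5. RefSeq windows were found for 28 of 29 members, and PPP1CA had none. For a member the window nearest its GENCODE start was taken, and for another gene of the table the first window listed. The set of all windows can hold several for a gene, so the shares below come from unlike selections. A GC box was in 23 of 28, or 82.1%, against 69.9% of the other 1254 genes of the table with a window and 42.6% of all 35116 windows. The members had a median of 69.4% G and C in the window, against 65.6% for the other genes of the table. The cyclic AMP response element TGACGTCA was in 0 of 28 windows (2.79% of the other genes of the table and 1.65% of all windows). The AP-1 site TGACTCA was in 1 (2.39% and 4.20%) and the E box CACGTG in 2 (9.17% and 6.34%). The ETS letters CCGGAAG were in 2 of 28 windows, or 7.14%, against 19.0% of the other genes of the table and 8.52% of all windows. The NRF1 site was also in 2 of 28, against 2.63% of the other genes of the table and 1.03% of all windows. Both strands were searched, none of these motifs contains another, and a match describes the letters only.

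The lipid kinase members also ran both ways. PIK3R3 (chromosome 1, 46040140 to 46133036, minus strand) stood at 2.03, 0.48 and 0.71 with Tau-WT, at -0.04, -0.04 and 0.32 with Tau-K174Q, at -1.40, -0.55 and -1.63 with Tau-S199E, and at 0.79, -0.72 and 0.04 with Tau-K174Q-S199E. Every Tau-S199E library was below every Tau-K174Q library, and these were below every Tau-WT library (adjusted p = 0.0104 for Tau-S199E against Tau-WT). PIK3R4, the regulatory subunit of the class III lipid kinase that starts autophagy (chromosome 3, 130678935 to 130746829, minus strand), stood at -1.09, -0.33 and -1.30 with Tau-WT, at 1.02, -0.31 and -0.21 with Tau-K174Q, at 1.27, 0.81 and 1.85 with Tau-S199E, and at -0.50, -0.90 and -0.31 with Tau-K174Q-S199E. It rose by 2.21 SD units with Tau-S199E (SE 0.44, adjusted p = 0.00981), and the Tau-K174Q-S199E libraries lay among or near those of Tau-WT.

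PIP5K1A and PIP4K2C, which make phosphatidylinositol 4,5-bisphosphate by different routes, were highest on average with Tau-K174Q. PIP5K1A stood at -0.68, -1.86 and -0.93 with Tau-WT, at 0.70, 1.27 and 1.0 with Tau-K174Q, at 0.28, 0.73 and -0.42 with Tau-S199E, and at -1.0, -0.22 and 1.12 with Tau-K174Q-S199E. PIP4K2C stood at -1.25, -0.87 and -0.92 with Tau-WT, at 1.26, 1.32 and 0.69 with Tau-K174Q, at 0.03, 0.00 and 0.44 with Tau-S199E, and at -0.75, -1.26 and 1.30 with Tau-K174Q-S199E. Neither passed with Tau-S199E against Tau-WT, where the differences were 1.35 (SE 0.57, adjusted p = 0.0504) and 1.17 (SE 0.59, adjusted p = 0.0828). Against Tau-WT the Tau-K174Q differences were 2.15 and 2.10 SD units (limma adjusted p = 0.066 for both), the 2 largest of that comparison among the members.

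The 3 members with PRK symbols, which encode parts of different kinases, all fell with Tau-S199E. PRKACA (chromosome 19, 14091688 to 14118084, minus strand) stood at 1.59, 0.77 and 0.74 with Tau-WT, at -0.22, 0.31 and -0.04 with Tau-K174Q, at -1.34, -0.38 and -1.99 with Tau-S199E, and at 1.04, 0.01 and -0.48 with Tau-K174Q-S199E. PRKAG1, the gamma subunit by which AMP-activated kinase senses energy charge, stood at 0.81, 1.08 and 1.16 with Tau-WT, at -0.75, 0.20 and 0.28 with Tau-K174Q, at -1.26, -0.36 and -1.83 with Tau-S199E, and at 1.28, 0.07 and -0.67 with Tau-K174Q-S199E. In both genes all libraries of the 2 single substitutions were below all Tau-WT libraries. PRKAG1 fell by 2.16 SD units (SE 0.56, adjusted p = 0.0126), and PRKD2, a protein kinase D that acts downstream of diacylglycerol, fell by 2.14 (SE 0.58, adjusted p = 0.0143). All 3 passed under every alternative run, PRKAG1 and PRKD2 narrowly without library 12 (adjusted p = 0.0453 and 0.0498).

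Casein kinase and ribosomal S6 kinase members fell too. CSNK1A1, casein kinase 1 alpha, a part of the beta-catenin destruction complex, stood at 0.17, 1.2 and 1.10 with Tau-WT, at -0.96, -0.42 and -0.19 with Tau-K174Q, at -0.55, -0.81 and -1.63 with Tau-S199E, and at 1.81, 0.49 and -0.23 with Tau-K174Q-S199E. It fell by 1.82 SD units (SE 0.56, adjusted p = 0.0191) but did not pass without library 12 (adjusted p = 0.0666) or library 2 (adjusted p = 0.0570), and 2 pseudogenes are named after it. RPS6KB2, which encodes the S6 kinase S6K2 downstream of mTOR, stood at 0.52, 1.11 and 1.18 with Tau-WT, at -0.58, -0.10 and 0.28 with Tau-K174Q, at -1.27, -0.31 and -1.87 with Tau-S199E, and at 1.36, 0.38 and -0.70 with Tau-K174Q-S199E. Tau-WT lay above both single substitutions, and library 16 of Tau-K174Q-S199E was the highest library of all. RPS6KB2 fell by 2.08 SD units (SE 0.58, adjusted p = 0.0149; 0.0521 without library 12), and its 3′ end overlaps the antisense gene RPS6KB2-AS1. RPS6KA1, the ERK-activated kinase RSK1, fell by 1.76 SD units (SE 0.64, adjusted p = 0.0323), the weakest call among the kinases (adjusted p = 0.101 without library 12 and 0.0729 without library 2).

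**Figure D3:**
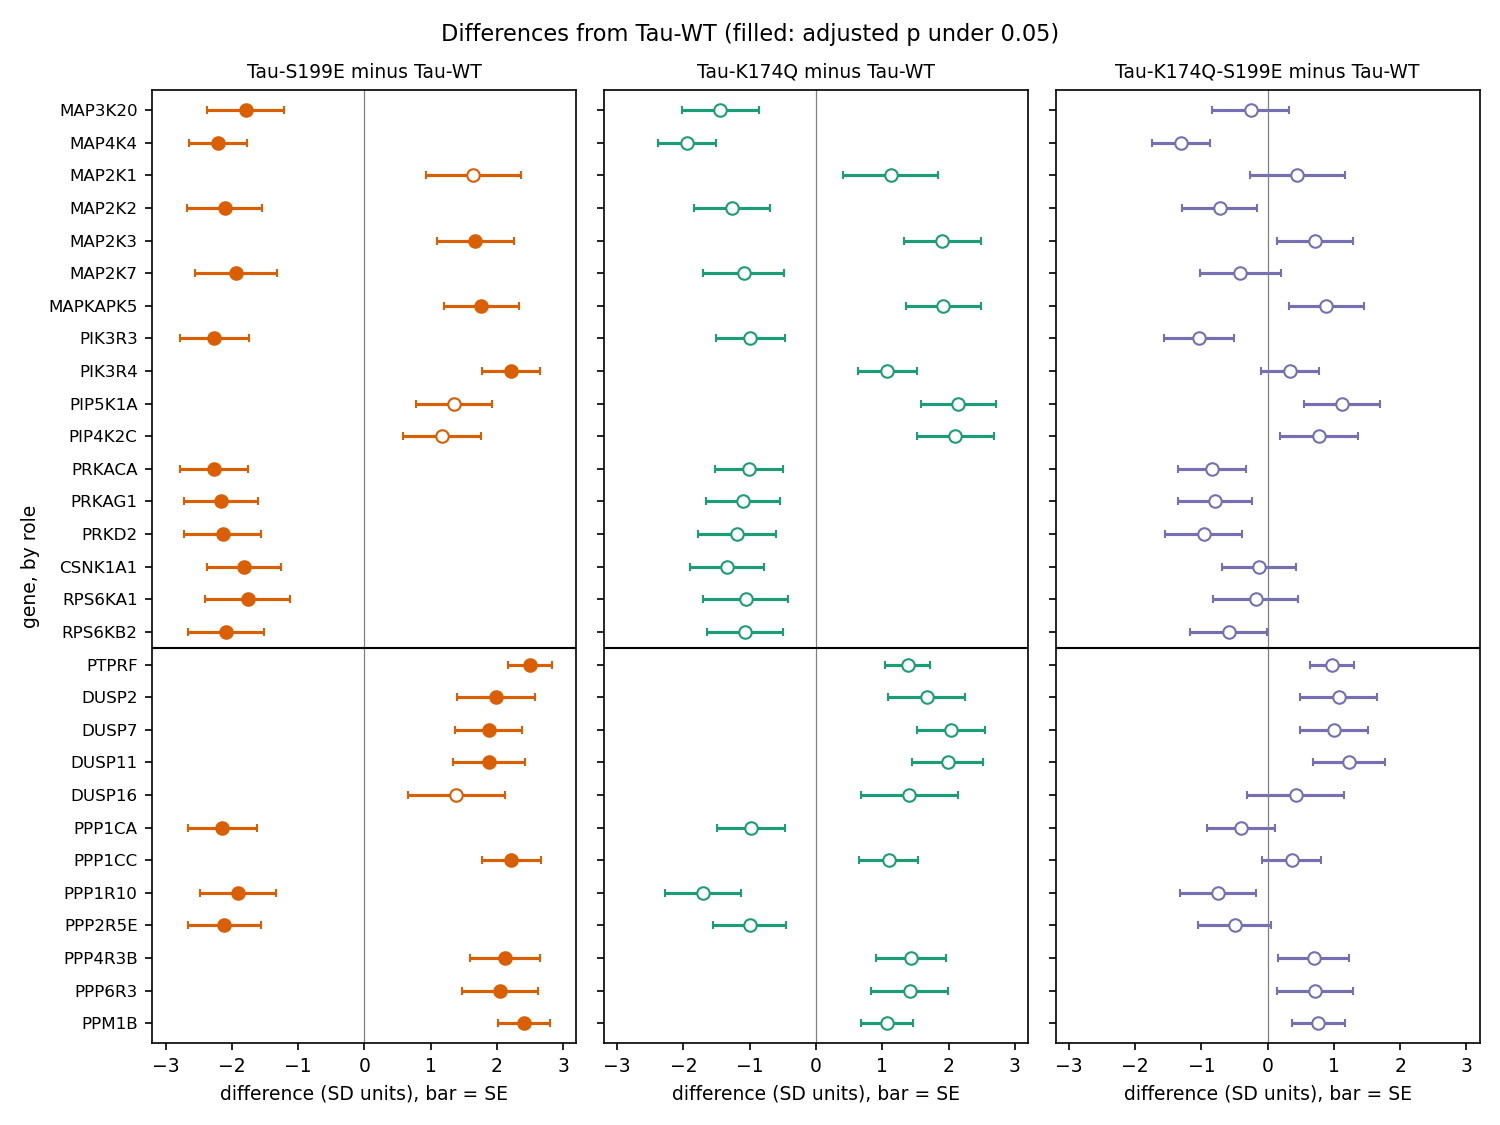
Differences from Tau-WT (SD units of each gene, x axis; bars are the SE of the limma fit) for the 29 members (y axis, by role, kinases above the line) with Tau-S199E, Tau-K174Q and Tau-K174Q-S199E. Filled points passed an adjusted p of 0.05: 25 with Tau-S199E and 0 with the other constructs.

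Among phosphatases PTPRF, the receptor tyrosine phosphatase LAR of axons and synapses (chromosome 1, 43525187 to 43623666, plus strand), gave the clearest separation. It stood at -0.84, -1.38 and -1.41 with Tau-WT, at 0.37, 0.28 and -0.14 with Tau-K174Q, at 1.02, 1.01 and 1.83 with Tau-S199E, and at -0.75, -0.27 and 0.30 with Tau-K174Q-S199E. Its Tau-S199E libraries did not overlap those of any other construct. The rise against Tau-WT had an adjusted p of 0.00805, and the difference was 2.23 without library 12 (adjusted p = 0.0177). PTPRF ranked 3 of 1676 by adjusted p in the authors' deposited table (6.58e-07). PPM1B stood at -0.81, -1.23 and -1.15 with Tau-WT, at -0.39, 0.65 and -0.23 with Tau-K174Q, at 1.11, 1.18 and 1.75 with Tau-S199E, and at -1.03, -0.16 and 0.29 with Tau-K174Q-S199E. Here too all Tau-S199E libraries were above all others (adjusted p = 0.00968 against Tau-WT).

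The 4 dual specificity phosphatases were all higher on average with Tau-S199E, and 3 of them passed. DUSP7, which dephosphorylates ERK in the cytoplasm (chromosome 3, 52048919 to 52056550, minus strand), stood at -1.52, -1.01 and -1.16 with Tau-WT, at 1.05, 0.49 and 0.89 with Tau-K174Q, at 0.09, 0.17 and 1.68 with Tau-S199E, and at -0.78, -0.56 and 0.66 with Tau-K174Q-S199E. All 9 libraries with a substituted tau were above all Tau-WT libraries, and the rise with Tau-S199E was 1.87 SD units (SE 0.51, adjusted p = 0.0142; 1.36 without library 12, adjusted p = 0.0409). DUSP11, which acts on the 5′ triphosphate of RNA and not on MAP kinases, stood at -1.18, -1.48 and -1.16 with Tau-WT, at 0.74, 0.82 and 0.58 with Tau-K174Q, at 0.47, 0.43 and 0.91 with Tau-S199E, and at -0.75, -0.82 and 1.43 with Tau-K174Q-S199E. Its libraries were tight within the first 3 constructs, whereas library 18 was the highest of all 12. The rise of DUSP11 was 1.88 SD units (SE 0.54, adjusted p = 0.0163; 0.0548 without library 12).

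DUSP2, an inducible nuclear phosphatase of ERK and p38, rose by 1.99 SD units with Tau-S199E (SE 0.58, adjusted p = 0.0171; 0.0593 without library 12), from -2.00, -0.98 and -0.56 with Tau-WT to 0.65, 0.38 and 1.39. DUSP16, a JNK phosphatase, scattered within both single substitutions, at 1.01, -0.89 and 1.69 with Tau-K174Q and at 1.81, 0.39 and -0.44 with Tau-S199E. Its difference from Tau-WT of 1.39 (SE 0.74) did not pass (adjusted p = 0.0977) and was 0.78 without library 10 (adjusted p = 0.311). With moderated variances DUSP16, MAP2K1, PIP5K1A and PIP4K2C passed too (adjusted p from 0.00405 to 0.0373), so that all 29 members were called, beside 98.4% of the table.

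**Figure D4:**
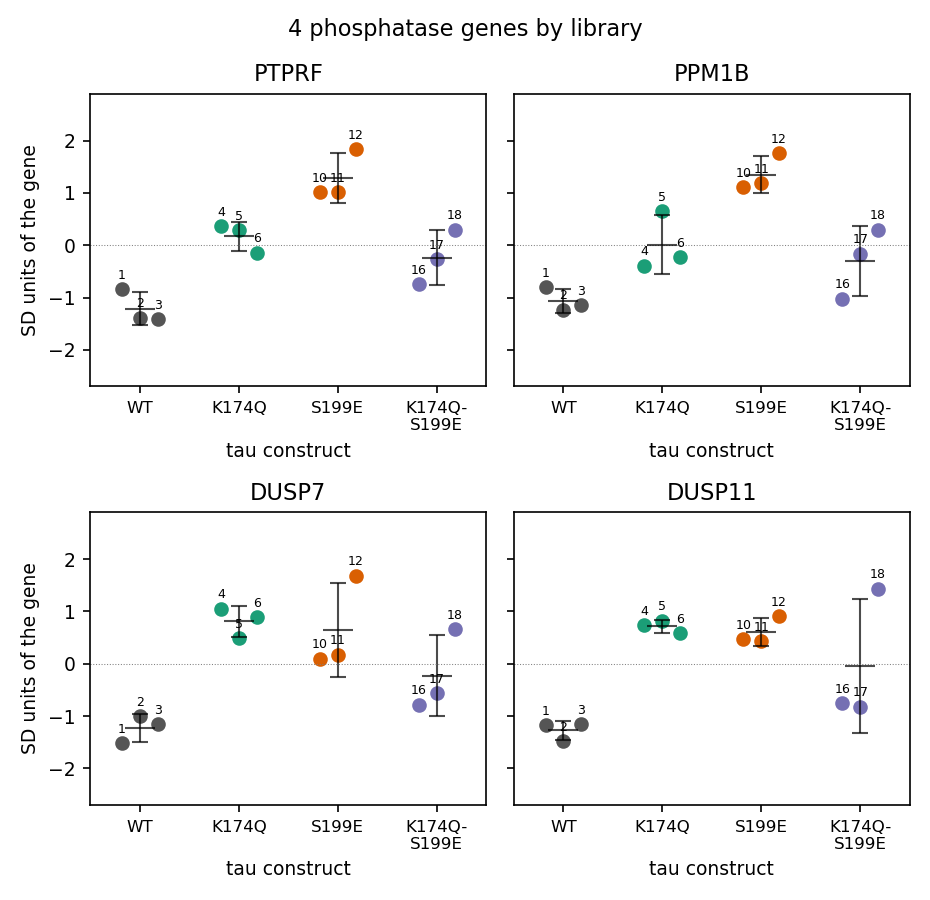
Standardised expression (SD units of the gene, y axis) of PTPRF, PPM1B, DUSP7 and DUSP11 by tau construct (x axis); points are libraries with their numbers, and bars give the mean and SD of 3 libraries. PTPRF and PPM1B are highest with Tau-S199E, while DUSP7 and DUSP11 are about as high with Tau-K174Q.

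Protein phosphatase 1 (PP1) has interchangeable catalytic subunits, and 2 of their genes changed in opposite directions. PPP1CA, the alpha subunit (chromosome 11, 67398183 to 67421183, minus strand), stood at 0.68, 1.15 and 0.82 with Tau-WT, at -0.52, -0.10 and 0.31 with Tau-K174Q, at -0.86, -0.82 and -2.10 with Tau-S199E, and at 1.40, 0.46 and -0.43 with Tau-K174Q-S199E. PPP1CC, the gamma subunit (chromosome 12, 110719680 to 110742939, minus strand), stood at -0.63, -1.11 and -1.02 with Tau-WT, at 0.28, 0.43 and -0.17 with Tau-K174Q, at 1.11, 0.53 and 2.27 with Tau-S199E, and at -0.96, -0.70 and -0.03 with Tau-K174Q-S199E. In each gene the groups of Tau-WT, Tau-K174Q and Tau-S199E were fully separate, and Tau-K174Q was the middle one. With Tau-S199E, PPP1CA fell by 2.14 SD units (SE 0.52, adjusted p = 0.0110) and PPP1CC rose by 2.22 (SE 0.44, adjusted p = 0.00981). Both calls held without library 12, with differences of -1.72 and 1.74. The 3′ end of PPP1CA overlaps exons of RAD9A on the opposite strand. PPP1R10, the nuclear targeting subunit PNUTS that binds PP1, stood at 1.74, 0.83 and 0.71 with Tau-WT, at -1.11, -0.06 and -0.67 with Tau-K174Q, at -0.93, 0.20 and -1.72 with Tau-S199E, and at 1.06, 0.24 and -0.28 with Tau-K174Q-S199E. It fell by 1.91 SD units with Tau-S199E (SE 0.57, adjusted p = 0.0182; 0.0614 without library 12), and 1 pseudogene is named after it.

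The regulatory subunits of the related phosphatases differed by complex. PPP2R5E, a targeting subunit of PP2A, a major tau phosphatase, stood at -0.17, 1.38 and 1.5 with Tau-WT, at -0.28, -0.31 and 0.29 with Tau-K174Q, at -0.61, -1.19 and -1.83 with Tau-S199E, and at 1.0, 0.56 and -0.34 with Tau-K174Q-S199E. It fell by 2.11 SD units (SE 0.55, adjusted p = 0.0129; 0.0465 without library 12), and Tau-WT library 1 lay apart from libraries 2 and 3. PPP4R3B of PP4 rose by 2.12 (SE 0.53, adjusted p = 0.0120), and PPP6R3 of PP6 rose by 2.04 (SE 0.58, adjusted p = 0.0156; 0.0520 without library 12). PPP6R3 had Tau-WT values of 0.10, -2.12 and -1.11, the widest Tau-WT spread among the members.

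Tau-K174Q against Tau-WT gave a higher mean in 15 members and a lower mean in 14, in a comparison that shares the Tau-WT libraries with the one above. None of the members passed (limma, adjusted p from 0.066 to 0.185), beside 0% of the table. At an unadjusted p under 0.05 there were 17 members, beside 51.9% of the table, and limma with moderated variances called 8 kinases and 8 phosphatases, beside 59.9% of the table. Libraries did not overlap in 23 of 29 members, against 80.7% of the table. The largest differences were those of PIP5K1A, PIP4K2C, DUSP7 (2.04, SE 0.51) and DUSP11 (1.98, SE 0.54), and on the lower side MAP4K4 (-1.95, SE 0.44), PPP1R10 (-1.70, SE 0.57) and MAP3K20 (-1.44, SE 0.58).

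Tau-S199E against Tau-K174Q sets the 2 single substitutions side by side without Tau-WT. No member passed, beside 0.0597% of the table, and 6 members had an unadjusted p under 0.05, beside 16.1% of the table. In the moderated test 0 members passed, and the share of the table in that test is not given here. PPM1B (1.34, SE 0.40), PIK3R4 (1.14, SE 0.44), PTPRF (1.12, SE 0.34) and PPP1CC (1.12, SE 0.44) were the members with the largest positive differences, and PIK3R3 (-1.27, SE 0.52), PRKACA (-1.26, SE 0.51), PPP1CA (-1.16, SE 0.52) and PPP2R5E (-1.11, SE 0.55) those with the largest negative ones (limma adjusted p from 0.239 to 0.334 for these 8). Libraries of the 2 constructs did not overlap in 9 members, against 36.2% of the table: PTPRF, PPM1B and PPP1CC were higher with Tau-S199E, and PIK3R3, PRKACA, PRKD2, PPP1CA, PPP2R5E and PIP4K2C lower. In the MAP kinase cascade and the DUSPs the libraries overlapped in all 11 members.

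Tau-K174Q-S199E against Tau-WT gave small differences: the median absolute value was 0.72 SD units over the members and 0.65 over the table. None of the 29 passed (limma, adjusted p from 0.533 to 0.886), beside 0% of the table, and 2 had an unadjusted p under 0.05, beside 7.58% of the table. In the moderated test 0 members passed, and the share of the table in that test is not given here. The lowest was MAP4K4 (-1.31, SE 0.44) and the highest DUSP11 (1.22, SE 0.54). Libraries did not overlap in 5 members, MAP4K4 below Tau-WT and PTPRF, DUSP7, DUSP11 and PPP4R3B above it, a share of the members that compares with 11.6% of the table.

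Tau-K174Q-S199E against Tau-S199E gave a higher mean in 11 of 17 kinases and 3 of 12 phosphatases, against 788 of 1676 genes of the table. This comparison shares the Tau-S199E libraries with the first, and its directions may also be tied to how the table was made. It is thus no separate observation of the split. None of the members passed (limma, adjusted p from 0.0644 to 0.704), beside 0.119% of the table, while 17 had an unadjusted p under 0.05, beside 56.4% of the table. The moderated test called 11 kinases and 7 phosphatases, beside 68.8% of the table. Without library 18 the ordinary test called 12 kinases and 10 phosphatases, beside 78.5% of the table. The largest differences were those of PIK3R4 (-1.88, SE 0.44), PPP1CC (-1.86, SE 0.44), PPP1CA (1.74, SE 0.52) and CSNK1A1 (1.68, SE 0.56). In 10 members the libraries did not overlap, against 43.4% of the table, and 6 of these are phosphatase genes.

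Tau-K174Q-S199E against Tau-K174Q gave differences with a median absolute value of 0.70 SD units, beside 0.71 over the table. No member passed, beside 0% of the table, 0 had an unadjusted p under 0.05, beside 8.23%, and 0 passed the moderated test, beside 0.119%. PIK3R4 was the 1 member whose libraries did not overlap (11.2% of the table), at -0.74 (SE 0.44). The nearest libraries almost met, with library 5 of Tau-K174Q at -0.306 and library 18 of Tau-K174Q-S199E at -0.312. PIP4K2C showed the largest difference (-1.33, SE 0.59). Without library 18, 2 kinases and 1 phosphatase passed, beside 8.47% of the table.

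Fold sizes come only from the authors' deposited table. There the log2 fold changes of the members ranged in size from 0.75 (MAP3K20) to 3.97 (DUSP7), with a median of 1.42 against 1.36 for the table. A positive sign, which goes with lower values with Tau-S199E than with Tau-WT, was deposited for 11 of 17 kinases (64.7%) and 3 of 12 phosphatases (25%), against 47.1% of the table. Members with a negative sign had larger fold changes (median size 1.90, 15 genes) than those with a positive sign (1.11, 14 genes), as had the table (1.62 and 1.16). DUSP7 (-3.97) ranked 38 of 1676 by size in the authors' deposited table, followed among the members by PIK3R4 (-3.2), MAP2K1 (-3.05), MAPKAPK5 (-2.61), DUSP11 (-2.25) and PTPRF (-2.22). On the positive side the authors' deposited table has its largest member values for PPP1CA (1.64), PPP1R10 (1.52), PRKAG1 (1.46) and MAP2K7 (1.41). The adjusted p in the authors' deposited table was 0.0324 for MAP2K1 and 0.000272 for DUSP7. By the authors' clusters, 11 members were in cluster 1, 3 in cluster 2, 8 in cluster 3 and 7 in cluster 4, and all 4 DUSPs were in cluster 3.

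**Figure D5:**
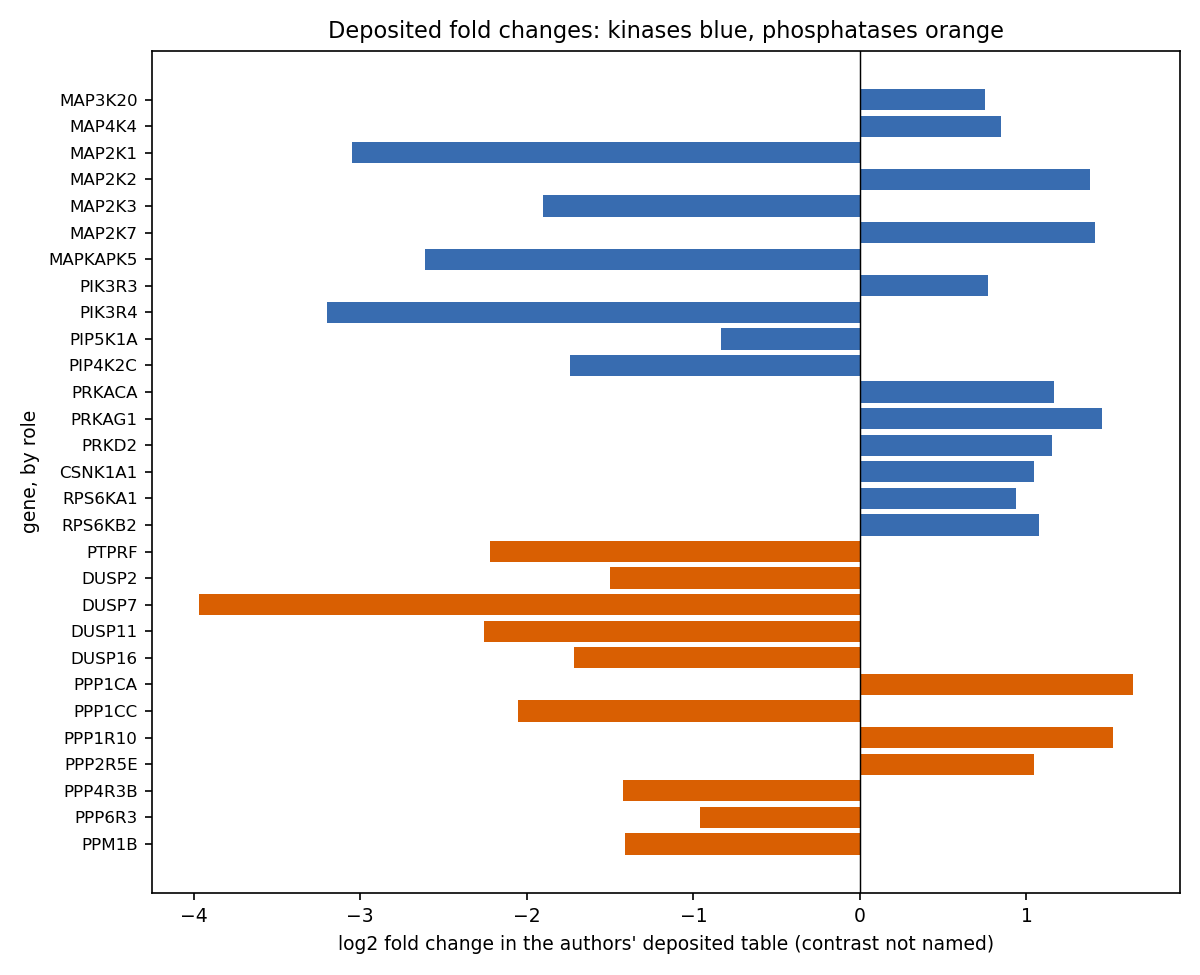
The log2 fold change of each of the 29 members (y axis, by role) in the authors' deposited table (x axis; contrast not named in its header), kinases in blue and phosphatases in orange. DUSP7 (-3.97), PIK3R4 (-3.2) and MAP2K1 (-3.05) have the longest bars, and no positive bar exceeds that of PPP1CA (1.64).

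Other genes of these pathways, taken from lists by function, were few in the table. Among 61 RAS, RAF and MAP kinase target genes the table had 8, and with Tau-S199E 6 rose and 1 fell (median difference 1.82 SD units). ELK1, a transcription factor that ERK phosphorylates, rose by 2.32 (SE 0.42), the stress adaptor GADD45B by 2.37 (SE 0.43), the GTPase NRAS by 1.96 (SE 0.60) and the receptor adaptor GRB2 by 1.53 (SE 0.60), with adjusted p between 0.00968 and 0.0408. Of 55 AKT and mTOR genes 10 were in the table, 5 rising and 4 falling. AKT1 (2.17, SE 0.33) and RHEB, the GTPase that activates mTOR (2.05, SE 0.53), rose, and SESN2, an inhibitor of mTORC1 (-1.52, SE 0.53), and GSK3A (-2.18, SE 0.55), a kinase inhibited by AKT, fell. Of the others, RRAGA (2.03, SE 0.57), EIF4EBP2 (1.81, SE 0.58) and DDIT4 (1.74, SE 0.68) rose. BAD (-1.88, SE 0.64) and MLST8 (-1.58, SE 0.63) fell, and INPPL1 (-1.42, SE 0.73) did not pass. Activity of the pathway was not tested.

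Of 67 calcium and cyclic AMP genes 8 were in the table, 4 rising and 3 falling, with GNAI1, an inhibitory G protein subunit, at 2.16 (SE 0.50), PLCG2, a phospholipase, at 2.48 (SE 0.31), MARCKSL1, a protein kinase C substrate, at 2.27 (SE 0.52) and NFATC4, a transcription factor freed by calcineurin, at -1.79 (SE 0.60). Among 170 other protein kinases the table had 16, with 4 rises and 8 falls. ROCK1 (-1.47, SE 0.45), ABL2 (-1.52, SE 0.51) and MARK2, a tau kinase (-2.31, SE 0.40), fell, and DAPK3 (-1.63, SE 0.73) did not pass. Among 71 other phosphatases and regulators it had 11, with 4 rises and 7 falls. Over the whole table, as given above, 48.3% of genes rose and 41.8% fell. PPME1, which demethylates the PP2A catalytic subunit (-2.30, SE 0.45), and the histidine phosphatase PHPT1 (-1.72, SE 0.51) fell, while CDKN3, a phosphatase of cyclin-dependent kinases (2.27, SE 0.46), and the inositol phosphatase IMPA2 (2.06, SE 0.59) rose. In these lists no gene passed with Tau-K174Q or Tau-K174Q-S199E against Tau-WT, where 0 genes of the whole table passed.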

How the data were processed

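Library preparation used a kit for 3′ ends of mRNA, per the labels' protocols. STAR 2.5.3a, RSEM 1.2.31, DESeq2 and GRCh38 are listed, without their roles, per the submitters' processing notes. The library columns are a score deposited by the authors: each gene was standardised to mean 0 and SD 1 across its 12 values, which was checked on the values. The deposited log2 fold change and the deposited adjusted p-value belong to a contrast that the file headers do not name, and a cluster number from 1 to 4 was also deposited by the authors. Columns name the construct but no replicate number of the labels.

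From these values limma 3.58.1 (R 4.3.3) was run with 1 mean per construct and all 12 libraries in the fit, with the ordinary residual variance of each gene (8 residual degrees of freedom) and Benjamini-Hochberg adjustment over 1676 genes, threshold 0.05, two-sided. The fit was tested on simulated data. A pseudocount, a count filter or a count model cannot be applied to standardised values. Alternatives were moderated variances, a fit on the 6 libraries compared, subtraction of library means and leaving out each library. Leaving out libraries 12 and 18 together was added after the data were seen. The members and lists were chosen with earlier results of these data known. Members with values in all libraries were those with the smallest deposited adjusted p in each role, the 3 largest rises and falls with Tau-S199E and the largest rise and fall with Tau-K174Q-S199E among kinases and among phosphatases, plus MAP2K1, MAP2K2 and PIP4K2C, which were added after their values were seen. From each list the 4 genes with the smallest deposited adjusted p are named, and from the AKT and mTOR list the other genes in the table as well. Gene positions and types are from GENCODE release 29 (GRCh38), and upstream windows from RefSeq (GRCh38.p14).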

Additional observations from a re-analysis of the deposited data

How the results depend on the processing

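With moderated variances, Tau-S199E against Tau-WT called 17 kinases and 12 phosphatases, beside 98.4% of the table. In that fit Tau-K174Q against Tau-WT called 8 kinases and 8 phosphatases instead of 0, and Tau-K174Q-S199E against Tau-S199E called 11 and 7 instead of 0. On the 6 libraries compared, Tau-K174Q against Tau-WT called 7 kinases and 7 phosphatases, beside 48.9% of the table. Without libraries 12 and 18, Tau-K174Q against Tau-WT called 8 kinases and 9 phosphatases (58.5% of the table), Tau-K174Q-S199E against Tau-S199E 7 and 7 (43.6%), and Tau-K174Q-S199E against Tau-K174Q 5 and 3 (26.9%). In the same fit Tau-S199E against Tau-WT called 14 kinases, 5 as rises and 9 as falls, and 11 phosphatases, beside 79.4% of the table, and MAP2K7 and RPS6KA1 were not among them. The cause of these differences was not tested.

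Leaving out each library in turn, Tau-S199E against Tau-WT called 7 to 15 kinases and 7 to 11 phosphatases, beside 49.7% to 83.7% of the table. Tau-K174Q-S199E against Tau-S199E called 0 to 12 and 0 to 10, beside 0% to 78.5%, and Tau-K174Q-S199E against Tau-K174Q 0 to 2 and 0 to 1, beside 0% to 8.47%. The other 3 comparisons kept 0 in each class whichever of their own libraries was left out. No difference between Tau-S199E and Tau-WT changed sign in any member under the 10 alternatives. In 28 of 29 members leaving out libraries could not have changed it, as the libraries of these constructs did not overlap. Moderated variances and the fit on the 6 libraries compared leave the difference itself unchanged. Subtracting library means left 14 kinases and 11 phosphatases called in Tau-S199E against Tau-WT. These are the counts of the main fit, in which 90% of the table passed. The share of the table with library means subtracted is not given here. No paired analysis was possible because the columns carry no replicate numbers of the labels. Depth is unknown, so no limit of detection can be given.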
